A study of Mus musculus with 2 samples.

Results

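The genes described here encode the semaphorin, plexin, neuropilin, ephrin, Eph, Slit, Robo, netrin and Unc5 proteins, 55 genes chosen by name, and all 55 were found through the RefSeq transcript of a probe among 20884 named genes on the array. They comprised 19 semaphorins, 11 plexins and neuropilins, 10 Eph receptors, 7 ephrins, 4 Slit and Robo genes and 4 netrin and Unc5 genes. RNA came from 2 cell populations of the epididymal fat of male C57/BL mice, both grown as primary cultures after collagenase digestion and both exposed to insulin, dexamethasone and IBMX, the usual adipogenic mix, for 3 days and then to plain medium for 2 days. Confluency is given as 90% for both. Differentiated small proliferative adipocytes (SPAD) grew from cells that floated in a first brief spin and sedimented in a second. Differentiated stromal vascular cells (SVCD, spelled viscular in the labels) grew from the lower phase that was left when the floating cells were taken off. The sample titles call both populations differentiated, while the description fields call them SPA and SVC. The titles were followed here. The age of the mice, the number of animals and the number of cultures behind each RNA are not given in the sources used here. Each population was measured on 1 single-colour Agilent array. No difference below therefore has a replicate check or a p-value, and the number of arrays limits the precision.

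Guidance molecules work as pairs of a ligand and a receptor and were first known for steering growing axons by attraction or repulsion. Semaphorins act through plexins, and the secreted class 3 semaphorins mostly need a neuropilin as coreceptor. Ephrins, themselves fixed to the cell surface, bind Eph receptor tyrosine kinases on the neighbouring cell, and both cells receive a signal. Slits act through Robo receptors, and netrins through DCC and Unc5 receptors. In adult tissues the same proteins shape vessels, immune cell traffic and cell adhesion, and in mouse fat netrin 1, Sema3e and Slit proteins are known for roles in macrophage retention, inflammation and heat production.

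Values are the processed signal of a gene's brightest probe, in linear intensity units after the scanner software's background subtraction. A difference is the log2 signal of SPAD minus that of SVCD, each first set against the 75th percentile of its own array (signals of 622 in SPAD and 678 in SVCD). The error after ± is the SD of a difference expected from repeat spots on both arrays. It is taken by signal from probes printed 10 times, pooled over the arrays. Each member probe had 1 spot. For 1 spot on 1 array the repeat-spot SD was 0.45 on the log2 scale for signals under 20 and 0.06 for signals over 5000. It covers neither cultures nor labelling. A probe called not well above background by the scanner software on 1 array gives only a bound ("at least N-fold"), against the higher of its own dim signal and the lowest signal among probes well above background on that array. Where its own dim signal is the higher, the bound is the measured difference itself. No bound allows for the repeat-spot error. Signals are compared between arrays for 1 probe and not between probes of different genes, apart from the array's lowest signal used in bounds. Summed marker signals add several probes on each array.

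On both arrays 44 of the 55 members (80.0%) were well above background, against 67.4% of all named genes. Another 7 (Sema3a, Sema3d, Sema4f, Plxna3, Plxnb3, Epha4 and Ntn4) were so on the SVCD array alone, 12.7% of the 55 beside 4.16% of all named genes. Of these 7, 2 (Sema3a and Plxnb3) had a bound of 2-fold or more, as did 38.2% of all genes seen in SVCD alone. On the SPAD array alone there were 0 members, beside 3.27% of all named genes, and 76% of the genes in that class had such a bound. On neither were Epha3, Ephb1, Robo2 and Unc5c. Among the 44 members measured on both arrays, 8 lay past 2-fold on the higher side in SPAD (18.2%), where 14.4% of all genes so measured did. On the lower side were 11 members (25.0%), where 13.3% of all such genes were. Counting both directions, 19 of the 44 members were past 2-fold, beside 3903 of the 14074 such genes (27.7%). The median difference of the 44 was 0.17, beside 0.07 for all such genes, and their differences ran from -4.40 for Sema4d to 4.41 for Sema5b. Ligands were divided between the directions, with 7 of 26 measured past 2-fold on the higher side and 6 on the lower. Of 18 measured receptors, 1 was past 2-fold on the higher side and 5 on the lower. The choice of scaling bears on every direction: set to the spike-in RNA, all differences were 0.84 lower, and the median of all genes measured on both arrays was -0.77. Then 14 of the 44 members changed sign, none of them past 2-fold before, and 4 of the 8 higher genes (Sema5b, Sema7a, Efna1 and Efnb3) stayed past 2-fold. All 11 lower genes did too, since a downward shift cannot remove a lower call. With that scaling 17 of the 44 members were past 2-fold on the lower side, as were 5363 of the 14074 genes measured on both arrays. Scale-dependent statements below are relative to the 75th percentile.

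**Figure D1:**
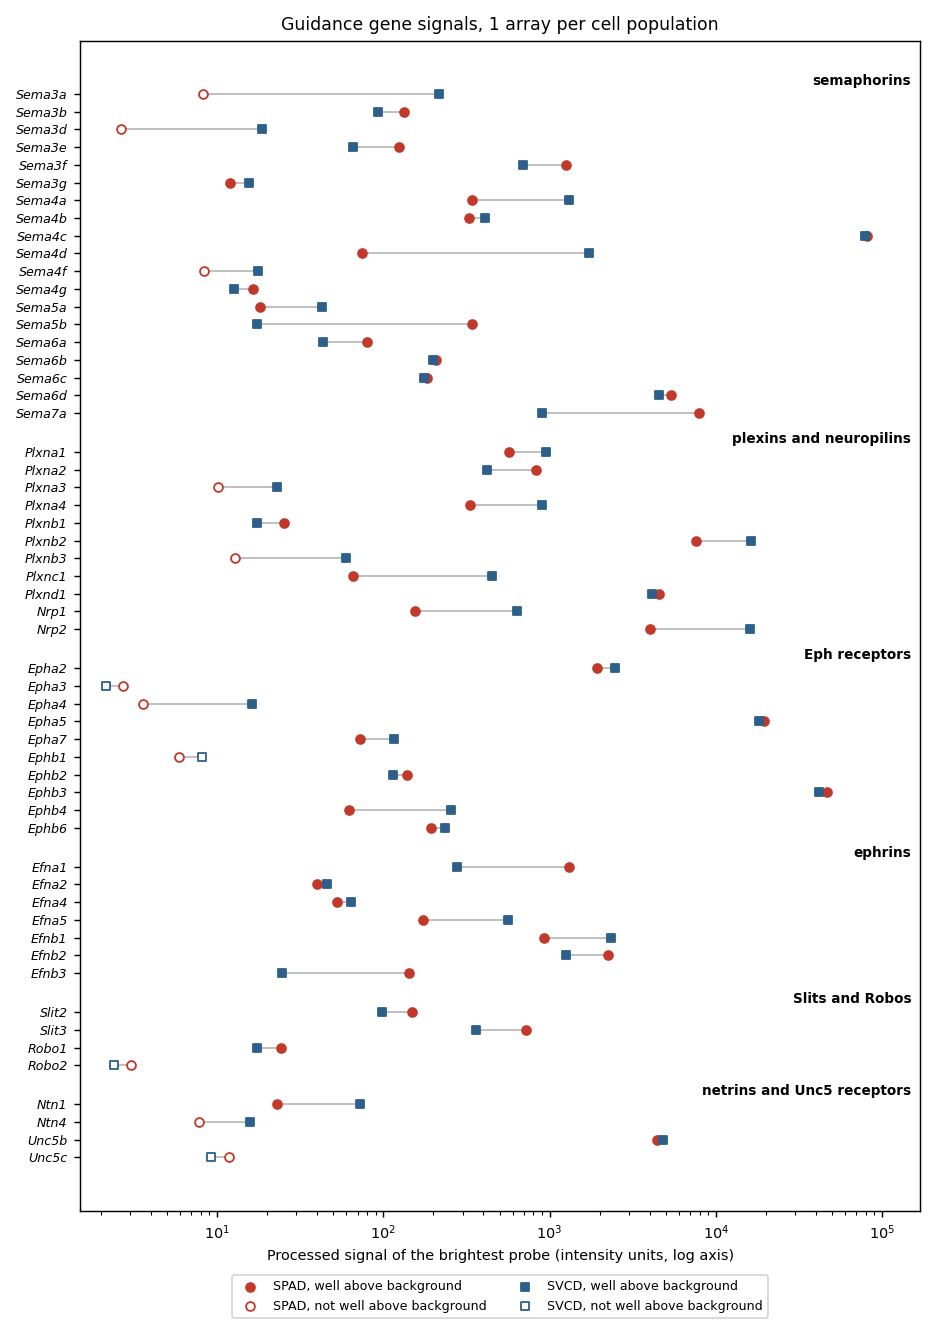
Processed signal of each member's brightest probe on the SPAD array (red circles) and the SVCD array (blue squares), on a log axis, by family. Open symbols are not well above background. Among filled symbols the widest gaps are those of Sema4d (74.4 in SPAD, 1716 in SVCD) and Sema5b (339.6 in SPAD, 17.5 in SVCD), while Sema4c, Epha5 and Ephb3 lie nearly on top of each other.

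The cell populations were checked through marker genes. Of 13 measured mature adipocyte markers, 12 were past 2-fold on the higher side in SPAD and 1, Lpl, on the lower (sums of 156211 in SPAD and 60883 in SVCD), while Lep, which encodes leptin, reached no signal well above background. Of 16 endothelial markers, 12 were past 2-fold on the higher side and 1 (Sox18) on the lower, with summed signals of 43472 in SPAD and 12384 in SVCD. Macrophage markers ran the other way: 8 of 12 measured on both arrays were lower by over 2-fold and 0 higher, with sums of 176169 in SPAD and 347688 in SVCD, and Fcgr1 and Cx3cr1 were not well above background in SPAD. Smooth muscle and myofibroblast markers were past 2-fold on the lower side in 6 of 8 (sums of 17189.5 in SPAD and 217895 in SVCD), and mesothelial markers in 3 of 5 (sums of 1274 in SPAD and 11774 in SVCD), while 4 of 7 pericyte markers were past 2-fold on the higher side and 1 on the lower (sums of 4873 in SPAD and 1639 in SVCD). Schwann cell and neuron markers were split, with 2 of 6 higher and 2 lower (sums of 2302 in SPAD and 5338 in SVCD), and of 4 lymphocyte markers measured on both arrays only Ptprc, which all leukocytes carry, was past 2-fold, lower. The lymphocyte markers Cd3d and Cd79a were well above background in SPAD alone, at least 1.98-fold and 2.08-fold higher. Both were dim: Cd3d had 15.6 in SPAD and 1.88 in SVCD, and Cd79a 16.4 in SPAD and 7.64 in SVCD. For each the repeat-spot SD of the log2 difference was 0.63. Each sum adds probes of unequal brightness and is carried by a few: Fabp4 alone gave 108495 in SPAD and 31257 in SVCD of the adipocyte sums, and Tagln 9857 in SPAD and 129539 in SVCD of the smooth muscle sums. These markers differed beside the guidance genes below, and their part in those results was not tested. In such mixed cultures fewer cells of a type and less RNA per cell cannot be told apart.

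The membrane-bound semaphorins, classes 4 to 7, held the highest and the lowest difference among the 44 members measured on both arrays. Sema7a, a semaphorin held by a lipid anchor that signals through Plxnc1 and integrins, had a signal of 7974 in SPAD and 897 in SVCD. It was 9.69-fold higher in SPAD (log2 difference 3.28 ± 0.09), the second highest difference after that of Sema5b. Sema5b, a transmembrane semaphorin with thrombospondin repeats, had 339.6 in SPAD and 17.5 in SVCD, 21.2-fold higher (4.41 ± 0.45). Its second probe, for the same transcript, stayed at background on both (2.92 in SPAD, 2.29 in SVCD), so the 2 probes of Sema5b disagree, and the gain rests on 1 spot per array. Sema6a, a transmembrane ligand of Plxna2 and Plxna4, lay just past the line, with 80.1 in SPAD and 43.3 in SVCD (1.01 ± 0.29).

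On the lower side were Sema4d and Sema4a, best known from the immune system, and Sema5a. Sema4d, known as CD100 on lymphocytes and other leukocytes, had a signal of 74.4 in SPAD and 1716 in SVCD. It was 21.1-fold lower in SPAD (-4.40 ± 0.11), the lowest value of any member measured on both arrays. Sema4a, a costimulatory ligand of immune cells, had 339.6 in SPAD and 1313 in SVCD, 3.54-fold lower (-1.82 ± 0.08). Sema5a, a relative of Sema5b, was 2.15-fold lower (-1.11 ± 0.53), from signals of 18.1 in SPAD and 42.6 in SVCD, with an error that reaches back across the 2-fold line. Cd72, the receptor through which Sema4d acts on leukocytes, was also lower (-7.80 ± 0.45), at 15.4 in SPAD and 3739 in SVCD. It is itself 1 of the 8 macrophage markers counted as lower above.

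The other membrane-bound semaphorins differed by less than 2-fold. Sema4c, the ligand of Plxnb2, was bright and nearly equal, at 81291 in SPAD and 78601 in SVCD (0.17 ± 0.08). Sema6d, a ligand of Plxna1 in heart and bone, had 5405 in SPAD and 4544 in SVCD (0.38 ± 0.08). Sema4b (-0.18 ± 0.09), Sema6b (0.19 ± 0.12) and Sema4g (0.50 ± 0.63) stayed close to 0. The 2 probes of Sema6c disagreed: the brighter had 182 in SPAD and 176 in SVCD (0.17 ± 0.14), and the other 181 in SPAD and 58.1 in SVCD (1.77 ± 0.14), although both are assigned to the same transcript. Sema4f was well above background in SVCD alone, at a signal of 17.7 there and 8.38 in SPAD, which gives a log2 bound of only -0.58.

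Class 3 semaphorins, which are secreted, split by gene. Sema3a, the founding repellent that binds Nrp1, was not well above background in SPAD (8.25) and had 215 in SVCD, at least 18.3-fold lower. Its second probe told the same, with 6.86 in SPAD and 92.6 in SVCD. Sema3e, which binds Plxnd1 without a neuropilin, had 125 in SPAD and 65.8 in SVCD, 2.07-fold higher (1.05 ± 0.14). Sema3f, the ligand of Nrp2, fell just short of 2-fold, with 1252 in SPAD and 696 in SVCD (0.97 ± 0.08), and Sema3b, a related secreted semaphorin, had 133 in SPAD and 92.4 in SVCD (0.65 ± 0.14). Sema3g, an endothelial semaphorin, was dim on both arrays, with 11.96 in SPAD and 15.6 in SVCD (-0.25 ± 0.63), a difference smaller than its error. Sema3d had 2.65 in SPAD and 18.7 in SVCD, of which only the SVCD signal was well above background, a bound of 1.58-fold lower. In all, 4 of the 16 semaphorins measured on both arrays were past 2-fold on the higher side (25.0%) and 3 on the lower (18.8%). The median was 0.28. Of all genes so measured 14.4% were higher and 13.3% lower, with a median of 0.07.

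**Figure D2:**
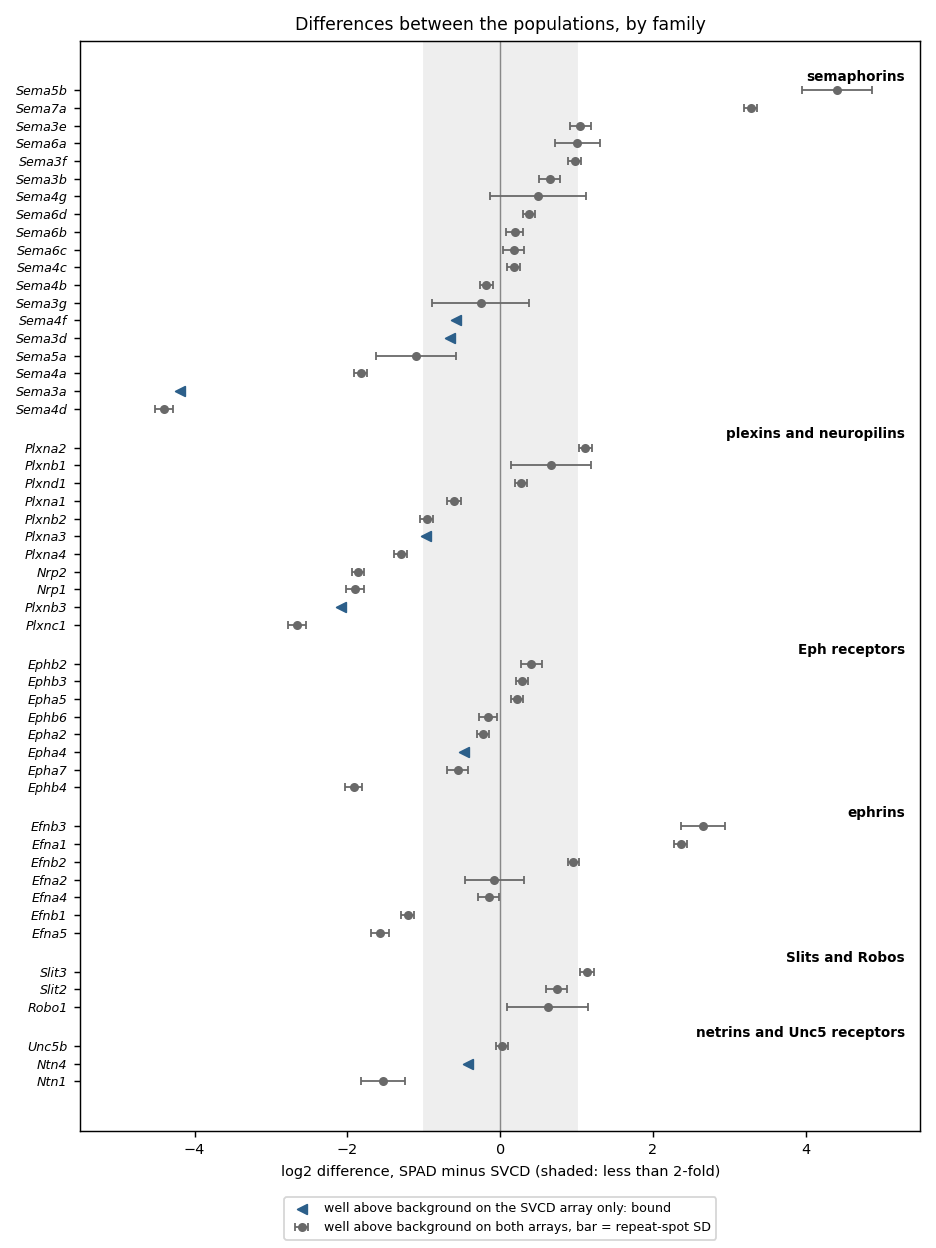
Log2 difference of SPAD minus SVCD for the 51 members well above background on at least 1 array, sorted within each family. Points are members measured on both arrays with the repeat-spot SD as the bar, triangles are bounds, and the shaded band is a difference under 2-fold. Of the plexins and neuropilins measured on both arrays, 4 lie left of the band and 1 right of it, and of the ephrins 2 lie on either side.

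Of the semaphorin receptors, 9 plexins and neuropilins measured on both arrays, 4 were past 2-fold on the lower side in SPAD (44.4%), 1 was on the higher side (11.1%) and 4 were within 2-fold. Their median was -0.96, and of all genes 13.3% were past 2-fold on the lower side and 14.4% on the higher. Both neuropilins were lower. Nrp1, the coreceptor of Sema3a and of vascular endothelial growth factor, had 155 in SPAD and 634 in SVCD, 3.73-fold lower (-1.90 ± 0.12). Nrp2, the coreceptor of Sema3f, had 4029 in SPAD and 16029 in SVCD, 3.65-fold lower (-1.87 ± 0.08), and its second probe, made for another transcript, gave -2.10 ± 0.08. Endothelial cells are known to carry neuropilins, and of the 16 endothelial markers 12 were past 2-fold on the higher side in SPAD, while Sox18 (-2.07), Vwf (-0.92) and Kdr (-0.49) had lower values there. The part of such cells in the Nrp1 and Nrp2 values was not tested.

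Among the plexins, Plxnc1, the receptor of Sema7a, had the largest difference. Its signal was 65.8 in SPAD and 453 in SVCD, 6.31-fold lower (-2.66 ± 0.12), and the second probe gave -1.85 ± 0.29. Plxna4, which takes part in Sema3a and Sema6a signalling, had 333 in SPAD and 897 in SVCD, 2.47-fold lower (-1.30 ± 0.09). Its second probe stayed at background on both (2.37 in SPAD, 5.61 in SVCD). Plxnb3, the receptor of Sema5a, was not well above background in SPAD (12.9) and had 59.3 in SVCD. Its bound of 4.23-fold lower is the measured difference itself (-2.08 ± 0.46). The bound for Plxna3, a partner of Nrp2, was 1.96-fold lower, from 10.1 in SPAD and 23.1 in SVCD.

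Plxna2, another receptor of Sema6a, was the 1 receptor among the 44 members measured on both arrays that was past 2-fold on the higher side. It had 832 in SPAD and 419 in SVCD, 2.16-fold higher (1.11 ± 0.09). Plxnb2, the receptor of Sema4c and a broadly expressed plexin, missed the line at 7638 in SPAD and 16256 in SVCD (-0.96 ± 0.08). Plxna1 (-0.61 ± 0.09), Plxnb1, the main receptor of Sema4d (0.67 ± 0.53), and Plxnd1, the vascular receptor of Sema3e (0.27 ± 0.08), differed by less than 2-fold. For Plxnd1 the second probe gave 0.19 ± 0.09.

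Of the 10 Eph receptors, 7 were measured on both arrays. Of the 7 measured on both arrays 0 were past 2-fold on the higher side and 1 on the lower (14.3%, near the 13.3% of all genes), and the median was -0.16. That gene was Ephb4, the receptor typical of veins, with 61.9 in SPAD and 256 in SVCD, 3.79-fold lower (-1.92 ± 0.12). Its second probe had 46.7 in SPAD and 104 in SVCD, a difference of -1.03 ± 0.29 in the same direction.

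Epha2, the main receptor of Efna1 outside the nervous system, had 1939 in SPAD and 2465 in SVCD (-0.22 ± 0.08). Ephb3, a receptor of B ephrins, had 46780.2 in SPAD and 41824 in SVCD (0.29 ± 0.08). Epha5, best known from brain, had 19449 in SPAD and 18209.7 in SVCD (0.22 ± 0.08) on 1 probe, while its other probe for the same transcript stayed at background (4.82 in SPAD, 2.72 in SVCD). The Epha5 signal therefore depends on which probe is read. Ephb2 (0.41 ± 0.14), Epha7 (-0.56 ± 0.14) and Ephb6, a member without kinase activity (-0.16 ± 0.12), were within 2-fold, and a second Ephb6 probe gave 0.91 ± 0.29, in the other direction. The other Epha7 probes, not well above background on either array, gave 0.26 ± 0.63 and 0.47 ± 0.63. Epha4 was well above background in SVCD alone, at 16.3 there and 3.58 in SPAD, with a bound of 1.38-fold lower.

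Ephrins, the ligands of these receptors, were all measured on both arrays, and of the 7 genes 2 were past 2-fold on the higher side and 2 on the lower. Each count is 28.6% of the ephrins, beside 14.4% of all genes on the higher side and 13.3% on the lower. Efna1, a lipid-anchored ephrin induced by inflammatory cytokines in endothelium, had 1305 in SPAD and 277 in SVCD, 5.15-fold higher (2.36 ± 0.08). Efnb3, a transmembrane ephrin best known from the midline of the nervous system, had 142 in SPAD and 24.7 in SVCD, 6.28-fold higher (2.65 ± 0.29). Efnb2, the transmembrane ephrin typical of arteries and the ligand of Ephb4, fell just short, with 2252 in SPAD and 1264 in SVCD (0.96 ± 0.08), and its dim second probe gave 0.72 ± 0.39.

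Lower in SPAD were Efna5 and Efnb1. Efna5, a lipid-anchored ephrin that binds several EphA receptors, had 174 in SPAD and 565 in SVCD, 2.98-fold lower (-1.57 ± 0.12). Efnb1, a transmembrane ephrin needed for skeletal patterning, had 923 in SPAD and 2334 in SVCD, 2.32-fold lower (-1.21 ± 0.08). Efna2 (-0.08 ± 0.39) and Efna4 (-0.15 ± 0.14) were nearly equal and dim. Each of the ephrin A and ephrin B groups therefore held 1 gene past 2-fold in each direction.

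The 3 Slit and Robo members measured on both arrays had higher values in SPAD, although with the spike-in scaling Slit2 and Robo1 turned to -0.10 and -0.22. Slit3, a secreted ligand also known from vessels and bone, had 726 in SPAD and 361 in SVCD, 2.19-fold higher (1.13 ± 0.09), and Slit2 had 149 in SPAD and 97.6 in SVCD (0.74 ± 0.14). Their receptor gene Robo1 was dim, with 24.4 in SPAD and 17.3 in SVCD (0.62 ± 0.53), and Robo2 stayed at background (3.02 in SPAD, 2.39 in SVCD).

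Of the 4 netrin and Unc5 members, Ntn1 and Unc5b were measured on both arrays. Ntn1, which encodes netrin 1, had 22.8 in SPAD and 72.1 in SVCD, 2.90-fold lower (-1.53 ± 0.29). Its second probe was well above background in SVCD alone, with 2.15 in SPAD and 13.0 in SVCD. Unc5b, the netrin receptor of vessels, had 4448 in SPAD and 4790.0 in SVCD (0.02 ± 0.08). Ntn4, a laminin-binding netrin of basement membranes, had 7.82 in SPAD and 15.8 in SVCD, with a bound of 1.34-fold lower, and Unc5c was not well above background in SPAD (11.9) or SVCD (9.20). Dcc and Ntn3, which are not among the 55, were past 2-fold on the higher side and are given with the other family genes.

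Ligands were next set beside their receptors, for 18 pairs that are known to bind. Of these, 16 had both genes measured on both arrays, and in 11 of the 16 ligand and receptor had differences of opposite sign, in 5 of the same sign; with the spike-in scaling, 7 were of opposite sign, and with quantile normalization 9. Pairs share genes, and no test of these counts was made. The list of pairs is not complete, and the counts depend on its choice. Ephb3, for example, was paired with Efnb1 but not with the other B ephrins, Efnb2 and Efnb3. Sema7a and Plxnc1 stood furthest apart, the ligand at 3.28 and the receptor at -2.66. Sema6a was past 2-fold the opposite way from Plxna4 but the same way as Plxna2, the receptor genes differing at 1.11 for Plxna2 and -1.30 for Plxna4. Efnb2 and Ephb4 differed by 0.96 and -1.92, and Sema3f and Nrp2 by 0.97 and -1.87. Efna1 was higher beside an Epha2 difference of -0.22, and Sema4d was lower beside a Plxnb1 difference of 0.67 ± 0.53. For Sema3a and Nrp1, both were lower, the first as a bound.

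**Figure D3:**
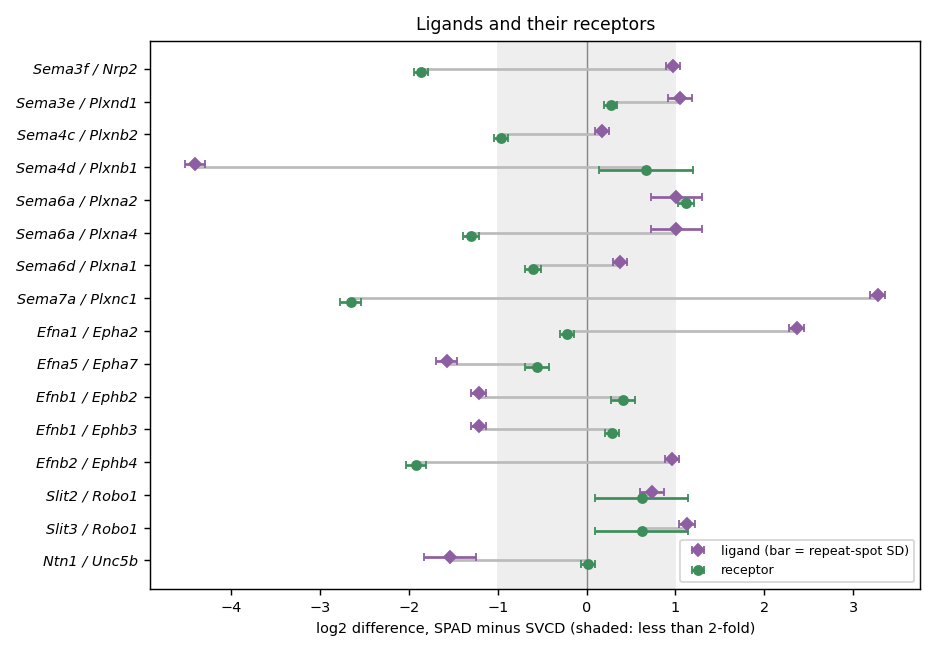
Log2 difference of SPAD minus SVCD for the ligand (purple diamonds) and the receptor (green circles) of the 16 pairs measured on both arrays. Bars are repeat-spot SDs and the shaded band is a difference under 2-fold. The widest gaps are those of Sema7a with Plxnc1 and Sema4d with Plxnb1.

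Promoter sequence is shown for the gene pairs on which these results turn, picked with their values known: Sema7a with Plxnc1, Efnb2 with Ephb4, and the neuropilins, which were lower together. Each line holds the 250 bases before the annotated transcript start, 5′ to 3′ on the gene's strand, from RefSeq on GRCm38.p6, with GC boxes (GGGCGG on either strand) in capitals. The array files use another build, so these positions do not apply to the probes.
Sema7a, chr9:57939862-57940111, plus strand: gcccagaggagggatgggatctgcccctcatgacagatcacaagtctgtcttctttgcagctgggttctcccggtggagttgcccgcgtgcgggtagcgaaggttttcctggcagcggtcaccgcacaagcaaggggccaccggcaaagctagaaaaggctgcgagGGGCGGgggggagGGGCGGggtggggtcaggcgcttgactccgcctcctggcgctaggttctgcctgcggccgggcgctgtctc
Plxnc1, chr10:94944846-94945095, minus strand: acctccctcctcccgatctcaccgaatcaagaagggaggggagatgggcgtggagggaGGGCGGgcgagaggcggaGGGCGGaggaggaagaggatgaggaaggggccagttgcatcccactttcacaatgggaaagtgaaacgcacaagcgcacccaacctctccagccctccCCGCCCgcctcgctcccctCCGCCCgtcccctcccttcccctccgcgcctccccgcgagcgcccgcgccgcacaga
Efnb2, chr8:8661243-8661492, minus strand: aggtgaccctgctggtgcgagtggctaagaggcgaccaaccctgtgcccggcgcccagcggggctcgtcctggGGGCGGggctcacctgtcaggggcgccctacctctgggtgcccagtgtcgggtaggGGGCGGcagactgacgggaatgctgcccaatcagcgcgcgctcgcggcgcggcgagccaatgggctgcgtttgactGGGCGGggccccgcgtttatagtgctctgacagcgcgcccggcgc
Ephb4, chr5:137349859-137350108, plus strand: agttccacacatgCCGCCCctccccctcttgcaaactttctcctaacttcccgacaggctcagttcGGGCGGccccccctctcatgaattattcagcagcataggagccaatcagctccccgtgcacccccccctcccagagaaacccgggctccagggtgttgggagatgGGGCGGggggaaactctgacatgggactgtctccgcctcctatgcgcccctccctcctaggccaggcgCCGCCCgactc
Nrp1, chr8:128358823-128359072, plus strand: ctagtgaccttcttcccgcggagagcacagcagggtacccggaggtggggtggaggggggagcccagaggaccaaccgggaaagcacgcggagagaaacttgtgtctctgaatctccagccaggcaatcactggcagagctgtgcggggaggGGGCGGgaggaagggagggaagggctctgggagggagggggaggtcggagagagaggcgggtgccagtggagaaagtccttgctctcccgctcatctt
Nrp2, chr1:62703067-62703316, plus strand: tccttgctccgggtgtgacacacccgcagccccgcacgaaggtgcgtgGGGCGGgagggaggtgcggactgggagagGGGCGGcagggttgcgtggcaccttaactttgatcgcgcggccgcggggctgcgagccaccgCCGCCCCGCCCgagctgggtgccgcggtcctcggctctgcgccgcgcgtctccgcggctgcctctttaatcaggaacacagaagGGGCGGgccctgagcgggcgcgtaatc
All 6 windows held a GC box, from 1 in Nrp1 to 5 in Nrp2, where 32.7% of 32851 upstream windows of the same length hold one. CpG dinucleotides numbered 11 in Nrp1, 12 in Ephb4, 17 in Sema7a, 22 in Plxnc1, 27 in Efnb2 and 32 in Nrp2, against a median of 6 over all windows. A TATAAA box, read on both strands, was found in Efnb2 alone (12.4% of all windows), and CCAAT in Efnb2 and Ephb4 (33.8%). The cAMP response element TGACGTCA (1.55%) and the hypoxia response core ACGTG (16.6%) were in none of the 6 windows. Of the 55 members, 48 had an entry in the promoter table. A match is a description of these letters, not a binding site.

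Guidance family genes outside the 55 were taken from a separate list of 24. Of 15 measured on both arrays, 5 were past 2-fold on the higher side in SPAD and 3 on the lower, and the median was 0.52. Robo4, the endothelial Robo, had 5587 in SPAD and 575 in SVCD, 10.6-fold higher (3.41 ± 0.09), and it is itself 1 of the 12 endothelial markers counted as higher above. Epha1 had 22.8 in SPAD and 233 in SVCD, 9.36-fold lower (-3.23 ± 0.28), a wider difference than that of Ephb4. Flrt3, a ligand of Unc5 receptors, was not well above background in SPAD (12.6) and had 145 in SVCD. Its bound of 10.5-fold lower is the measured difference itself (-3.40 ± 0.46). Epha8 was 4.57-fold higher (2.19 ± 0.53) at dim signals of 46.8 in SPAD and 11.2 in SVCD. Dcc, a netrin receptor, had 212086 in SPAD and 73946 in SVCD, 3.13-fold higher (1.65 ± 0.08). That is the brightest of 3 Dcc probes, and the others were not compared, so the value rests on 1 probe. Ntn3, a netrin ligand, had 121 in SPAD and 45.4 in SVCD, 2.90-fold higher (1.54 ± 0.29), opposite to Ntn1. The others past 2-fold were Sema3c on the higher side (1.12 ± 0.09), and Flrt2 (-2.02 ± 0.12) and Slit1 (-1.42 ± 0.29) on the lower.

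Genes that carry the signal inside the cell were mostly within 2-fold. Of 39 measured on both arrays, 4 were past 2-fold on the higher side in SPAD (10.3%) and 5 on the lower (12.8%), and the median was 0.05, near the shares and median of all genes. Pak1, a kinase activated by Rac, had 53.3 in SPAD and 362 in SVCD, 6.24-fold lower (-2.64 ± 0.12). Mical2, an enzyme that oxidises actin, was 4.83-fold lower (-2.27 ± 0.12), and Fes, a kinase abundant in myeloid cells that binds plexin A1, was 4.82-fold lower (-2.27 ± 0.08). Srgap1, a GTPase-activating protein that binds Robo, was 3.49-fold higher (1.80 ± 0.08), with 1671 in SPAD and 522 in SVCD. The GTPase genes Rac1 (0.20 ± 0.08) and Rhoa (-0.18 ± 0.08), on which the pathways converge, were nearly equal.

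Past 2-fold under every processing tried were 13 members, 4 higher in SPAD (Sema5b, Sema7a, Efna1 and Efnb3) and 9 lower (Sema4d, Plxnc1, Ephb4, Nrp1, Nrp2, Sema4a, Efna5, Plxna4 and Efnb1). Spike-in scaling lowers every difference alike, so it could remove higher calls but no lower ones. The deposited table repeats the differences to a constant of -0.0019, and the mean over probes leaves the 39 members with 1 probe unchanged. The counts of 4 and 9 therefore do not compare the directions. The remaining 6 lost the call in at least 1 processing. Sema3e, Sema6a, Plxna2 and Slit3 dropped to 0.17 to 0.29 with the spike-in scaling, and Sema5a and Ntn1 dropped to -0.38 and -0.66 with normexp, which compresses dim signals.

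**Figure D4:**
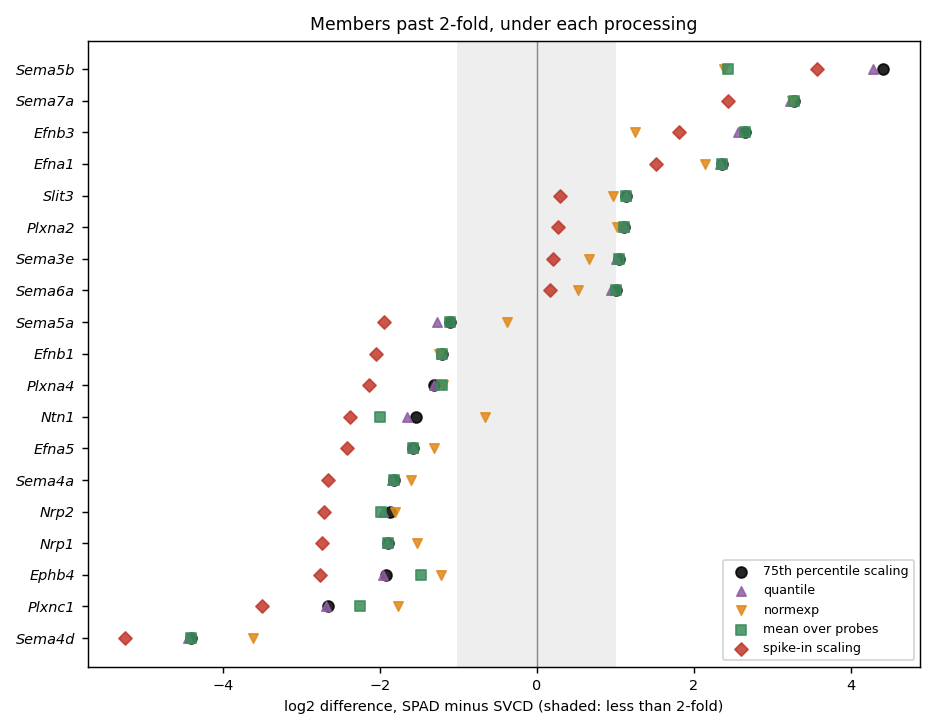
Log2 difference of SPAD minus SVCD for the 19 members past 2-fold, under the 75th percentile scaling (black), quantile normalization, normexp background correction, the mean over a gene's probes and spike-in scaling. The shaded band is a difference under 2-fold. The spike-in points (red diamonds) all lie 0.84 to the left of the black ones, and the normexp points of dim genes lie nearer 0.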

How the data were processed

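RNA of each population was labelled with Cy3 from 30 ng, per the labels' protocols. The submitters' processing notes name Agilent Feature Extraction 10.7.3.1 for reading the spots; the deposited intensity is background-subtracted on a linear scale, per the file headers. The authors' deposited table of log2 values is centred per probe; its differences matched those here to a constant of -0.0019. Of 44397 spots per array, 1377 controls were left out, as were outlier spots (73 in SPAD, 85 in SVCD); no other spot was saturated. This left 39425 probes, 27506 of them named through RefSeq transcripts (GRCm38.p6, names only). A gene was read from its brightest probe. Values were log2 intensity minus the array's 75th percentile (Python 3.11.15, pandas 2.3.3), checked on simulated data; differences of 2-fold or more were counted.

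Alternatives were quantile, spike-in and normexp processing (limma 3.58.1, offset 50, on median signals, since the mean signal planned is not a column of the files used), the deposited table, a mean over probes, no filter on dim probes, and 1.5-fold and 3-fold thresholds. All members are reported; of other lists, up to 4 genes with the largest difference or bound were to be named, beside genes singled out with their values known (Cd72, Lpl, Sox18, Vwf, Kdr, Lep, Ptprc, Cd3d, Cd79a, Fabp4, Tagln, Rac1, Rhoa, Dcc, Ntn3, Sema3c, Flrt2, Slit1). Members and lists were chosen with earlier results of these data known. Of the listed markers, Cd68 and Muc16 matched no probe.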

Additional observations from a re-analysis of the deposited data

How the results depend on the processing

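With 1 array per group every difference lacks a replicate check, and dim signals limit it most. Scaled to 8 spike-in probes, which themselves ranged from 0.77 to 1.89, 4 of the 44 members were past 2-fold on the higher side in SPAD and 17 on the lower. Their median was -0.67. Of the 14074 genes measured on both arrays, 731 were then past 2-fold on the higher side and 5363 on the lower. The members' share on the lower side was then near that of all genes. By family, that setting gave 2 semaphorins higher and 5 lower, 0 plexins and neuropilins higher, 3 Eph receptors lower, and 0 Slit and Robo genes higher. Among all genes the higher ones then made up 12.0% of those past 2-fold, against 52.0% before. With normexp 5 members were higher, among them 2 semaphorins and 0 Slit and Robo genes, and 0 netrin genes were lower. Of all genes measured on both arrays, 1377 were then higher and 1331 lower. Without a filter on dim probes 5 semaphorins and 2 Eph receptors were lower. At 1.5-fold 14 members were higher, including 2 plexins and 3 Slit and Robo genes. At 3-fold 4 were higher and 6 lower. Then 2 semaphorins were higher, as were 0 plexins and 0 Slit and Robo genes, and 0 ephrins and 0 netrin genes were lower. Shares of all genes were not counted without the filter or at 1.5-fold and 3-fold. No member past 2-fold changed sign under quantile, spike-in or normexp processing, the deposited table or the mean over probes. The shifts with spike-in scaling (0.84) and with the deposited table (-0.0019) were too small to turn such a member. Quantile normalization kept 7 of the 8 higher and all 11 lower members past 2-fold. The deposited table and the mean over probes kept all 19. That was nearly fixed in advance for the deposited table, and the mean could change only the 16 members with several probes. No paired analysis was possible because each group has 1 array and the labels carry no replicate numbers.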

Other observations

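Some guidance genes lie next to each other in RefSeq order, and neighbours did not always share a direction. Efna1, Efna3 and Efna4 follow one another on chromosome 3, with Efna3 adjacent to both. Efna1 was 5.15-fold higher in SPAD, whereas Efna3 (157 in SPAD, 174 in SVCD, -0.02 ± 0.14) and Efna4 (-0.15 ± 0.14) were nearly equal. Sema3a and Sema3d are adjacent on chromosome 5, and both were well above background in SVCD alone. Sema3e, with 3 protein-coding genes between it and Sema3a, was 2.07-fold higher in SPAD. Sema3b and Sema3f, 3 genes apart on chromosome 9, differed the same way, by 0.65 and 0.97, although Sema3b turned to -0.19 with spike-in scaling. Robo3 and Robo4, also adjacent on chromosome 9, went opposite ways: Robo3 was at least 2.42-fold lower in SPAD, with 4.37 in SPAD and 28.5 in SVCD, and Robo4 was 10.6-fold higher. Ephb2 and Epha8, with 3 genes between them on chromosome 4, differed by 0.41 and 2.19. With 1 array per group these are values only.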
